A study of Mus musculus with 15 samples.

Results

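The comparison described here sets 3 plantaris libraries titled as trained at 6 months and numbered 4 to 6 against the 3 libraries with the same title numbered 1 to 3. The libraries were chosen by their titles and names, not by levels, and they make up 6 of the 15 libraries of the series. All genes of the deposited table entered. The first set carries library names that begin with LD and is called the LD block. The second set carries names that begin with PoW and is called the PoW block. The untrained libraries of 6 months also carry PoW names, and both 9-month groups carry names that begin with DT, so only the first set has LD names. The labels do not spell out LD.

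The study trained mice by progressive weighted wheel running (PoWeR), in which the load on a voluntary running wheel is raised over time, and sequenced total RNA of the flash-frozen plantaris, a calf muscle. All animals were male. The stated model, named HSA-GFP, carried a tetracycline-inducible histone 2B fused to green fluorescent protein under the human skeletal actin promoter, which marks the nuclei of muscle fibres, and the text describes it for trained and control animals alike. The PoW block came from mice that began at 4 months of age, trained for 8 weeks and were taken at 6 months. The LD block has the same title and the same age, but its treatment field reads sedentary, where the field of the PoW block reads exercise. The same field also exchanges the words of both 9-month groups, so the titles were followed here, and whether the LD animals ran is not settled by the labels. The 3 untrained libraries of 6 months serve as the common reference level, and both 9-month groups (untrained, and trained for 8 weeks then rested for 12 weeks) entered the fit to share the estimate of spread. No label gives a litter, date, sequencing run or preparation batch, so a difference between the series of library names in animals, handling or sequencing cannot be told apart from a difference in treatment. Nothing states that libraries of a block came from separate mice, and p-values measure the spread between these libraries.

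The plantaris of the mouse is a fast muscle. Its fibres hold fast myosin and calcium-handling proteins that let the sarcoplasmic reticulum release and recover calcium quickly, and they draw on glycolysis and stored glycogen. Repeated loading is known to enlarge the fibres, raise oxidative capacity and remodel the connective tissue around them.

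Depth was alike in both blocks, with 20779761 to 26135003 expected counts per library in the PoW block, 23743635 to 26869821 in the LD block and 22678556 to 27688842 in the untrained group. The muscle label held in all 6 libraries: Acta1, the skeletal actin gene, lay between 21896 and 24987 CPM (counts scaled by the library's size and composition), against 18907 to 19451 in untrained muscle. LD replicates 5 and 6 stood apart in RNA of other cells. Haemoglobin genes took 0.31% of the counts of LD replicate 6 and at most 0.0902% of any other library of 6 months. Nerve and Schwann cell genes were high in LD replicate 5, with a summed level of 191 CPM against 78.5 and 82.2 CPM in the other LD libraries. Untrained replicate 1 lay apart from all others on the first principal component. Results are therefore also given for fits that leave out each library.

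Between the blocks, 365 of 15181 genes tested differed, which is a background of 2.4%, by edgeR's quasi-likelihood test with a Benjamini-Hochberg adjusted p under 0.05 over all genes tested. Such genes are described below as called. Of these, 195 were higher in the LD block (1.28% of genes tested) and 170 were lower (1.12%). Most differences were modest: the median size among called genes was 0.51 on the log2 scale, and 62 genes passed a 2-fold difference, of which 21 were higher and 41 lower. All 365 called genes had CPM values that did not overlap between the 3 and 3 libraries, as did 3245 of all genes tested (21.4%). The median log2 fold change of all genes tested was -0.00, a value that the scaling of the libraries centres near 0. An unadjusted p under 0.05 was found for 2166 genes (14.3% of genes tested), the share against which the counts of such genes on the lists below are to be read. The number of calls depended on each library of both blocks: it was 185, 231 and 161 without PoW replicate 1, 2 or 3, and 157, 217 and 213 without LD replicate 4, 5 or 6. In all, 109 genes (61 higher, 48 lower) were called in the fit with all libraries and again in each fit without any single one of the 15.

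**Figure D1:**
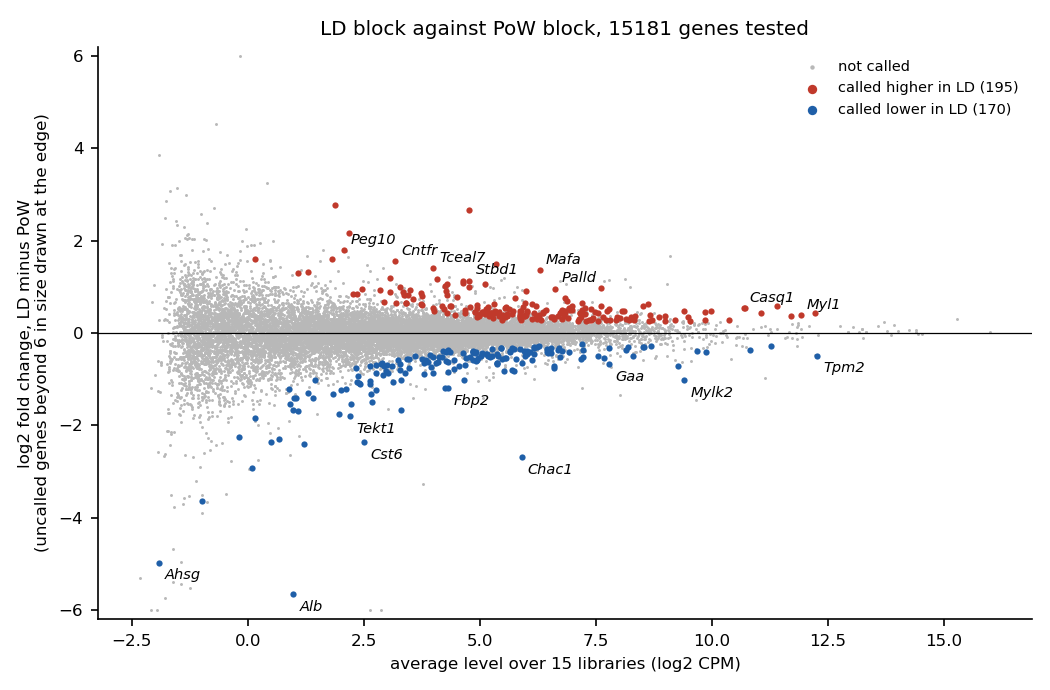
Average level of each gene over the 15 libraries (x axis, log2 CPM) against its log2 fold change between the blocks (y axis, LD minus PoW). Each point is a gene, red for the 195 called higher in the LD block, blue for the 170 called lower and grey for the others (those beyond 6 in size drawn at the edge); 62 of the 365 called genes lie beyond 1.

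The called genes were, for the most part, genes in which the LD block departed from every other library, untrained ones included. The LD block lay entirely above or entirely below the other 12 libraries in 256 of the 365 called genes (70.1%), and the PoW block did so in 56 (15.3%). Over all genes tested the same held for 889 genes in the LD block (5.86%), 233 in the PoW block (1.53%), 75 in untrained muscle of 6 months, 142 in untrained muscle of 9 months and 87 in detrained muscle. The untrained mean was nearer to the PoW block in 317 of the 365 called genes (86.8%), and in 8913 of all genes tested (58.7%). Against the shared untrained libraries, the LD block differed in 757 genes (4.99% of genes tested) and the PoW block in 0 (0%), with 1565 genes of the latter comparison at an unadjusted p under 0.05. The count of 757 fell to 386 without untrained replicate 1 and to 403, 288 and 437 without LD replicate 4, 5 or 6. DESeq2 called 134 genes in the PoW comparison and limma-voom 0. Those comparisons share the untrained libraries with each other and the blocks with the main one, so their counts are given side by side only.

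Libraries of different blocks were slightly farther apart than libraries of one block. The root mean square difference in log2 CPM over all genes tested was 0.548 to 0.576 within the PoW block, 0.556 to 0.583 within the LD block and 0.577 to 0.643 between them. The ranges overlapped at their ends, and the median per-gene SD of log2 CPM was 0.187 in each block. Over the 500 genes with the highest level they did not overlap, with 0.153 to 0.246 within the PoW block, 0.256 to 0.273 within the LD block and 0.278 to 0.409 between them. Untrained libraries were 0.551 to 0.71 from the PoW block and 0.61 to 0.783 from the LD block.

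The largest rises in the LD block included signalling and transcriptional genes. Values are log2 fold changes with their standard error (±), here and below. Peg10, an imprinted gene derived from a retrotransposon (chromosome 6, 4747306 to 4760517), rose from 2.9, 1.07 and 1.93 CPM to 6, 7.72 and 6.65 CPM. Cntfr, the receptor subunit that binds ciliary neurotrophic factor (chromosome 4, 41657498 to 41697089), rose from 5.48, 7.76 and 4.41 CPM to 17, 16 and 19.1 CPM. Their log2 fold changes were 1.80 ± 0.34 and 1.55 ± 0.22 (edgeR adjusted p = 0.00689 and 0.000635), and neither gene's blocks overlapped, a condition of choosing them. Untrained muscle was at 2.23 to 3.57 CPM for Peg10 and at 3.84 to 7.61 CPM for Cntfr, within or close to the range of the PoW block.

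Mafa, a transcription factor of the large Maf family (chromosome 15, 75745490 to 75748228), rose from 51.9, 59.5 and 42.3 CPM to 127, 134 and 136 CPM. Its 3 LD libraries were close together and at more than 2 times each PoW library. The log2 fold change was 1.37 ± 0.16 (edgeR adjusted p = 0.000473), and the untrained libraries, at 47.3 to 67.7 CPM, were at the PoW level. Tceal7, a small X-linked gene of the transcription elongation factor A-like family (chromosome X, 136214779 to 136226100), gave 10.1, 8.28 and 7.87 CPM against 25.7, 24.5 and 19.6 CPM, with untrained muscle between the blocks at 12.4 to 16.2 CPM. It rose by 1.41 ± 0.14 (edgeR adjusted p = 3.71e-05). The other rises in order were Ybx2 at 1.20, Mdga1 at 1.17, Stbd1 at 1.14, Mpp3 at 1.13, Dupd1 at 1.09, Eno1 at 1.07 and Lingo3 at 1.06. Eno1 encodes the enolase of non-muscle tissues and has processed copies in the mouse genome that could share its reads, so its level is less certain. The calls for Cntfr, Tceal7, Mafa, Ybx2, Stbd1, Mpp3, Eno1, Peg10 and Mdga1 held without each of the 15 libraries. Those for Dupd1 and Lingo3 did not, with highest adjusted p of 0.0905 for Dupd1 without PoW replicate 3 and 0.0631 for Lingo3 without LD replicate 5.

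**Figure D2:**
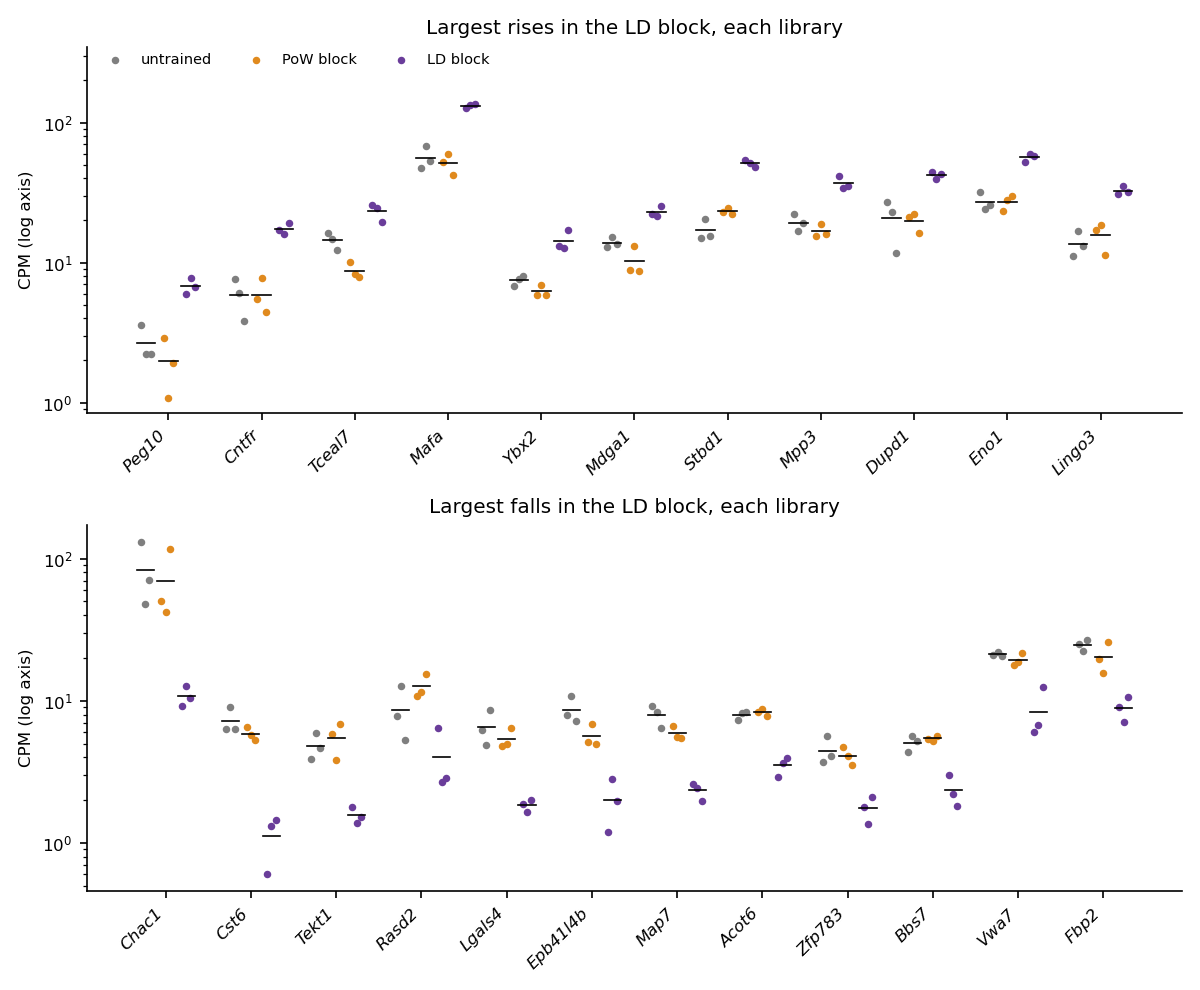
Level in each library of 6 months (y axis, CPM, log axis) of genes with the largest rises (top) and falls (bottom) in the LD block, as named in the text. Each point is a library and each line a mean of 3; LD and PoW libraries lie apart in every plotted gene, which was a condition of choosing them.

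The largest fall among named genes, which had an average log2 CPM of at least 2, was in Chac1, an enzyme that degrades glutathione and a target of the amino acid and endoplasmic reticulum stress response (chromosome 2, 119351229 to 119354381). It gave 50, 42.2 and 117 CPM in the PoW block and 9.21, 12.6 and 10.4 CPM in the LD block, while untrained muscle spread from 47.7 to 132 CPM. The LD libraries were low and close together, and the other libraries of 6 months were high and scattered. The log2 fold change was -2.69 ± 0.56 (edgeR adjusted p = 0.0344). The call was lost without 8 of the libraries in turn, with the highest adjusted p, 0.138, without LD replicate 4. It was the only 1 of 18 genes called on the endoplasmic reticulum stress list, whose median was 0.07.

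Cst6, an inhibitor of cysteine proteases (chromosome 19, 5344705 to 5349574), fell from 6.51, 5.77 and 5.26 CPM to 0.6, 1.31 and 1.45 CPM. Tekt1, a filament protein of cilia (chromosome 11, 72344722 to 72362442), fell from 5.81, 3.81 and 6.88 CPM to 1.8, 1.39 and 1.53 CPM. Both genes were as high in untrained muscle as in the PoW block, with 6.33 to 9.09 CPM for Cst6 and 3.87 to 5.94 CPM for Tekt1. Their log2 fold changes were -2.37 ± 0.27 and -1.80 ± 0.27 (edgeR adjusted p = 0.000147 and 0.00107), and both calls held without each library. The other falls in order were Rasd2 at -1.67, Lgals4 at -1.54, Epb41l4b at -1.49, Map7 at -1.33, Acot6 at -1.24, Zfp783 at -1.23, Bbs7 at -1.22, Vwa7 at -1.20 and Fbp2 at -1.19. Of these, Rasd2, Zfp783 and Bbs7 lost the call without at least 1 library, with highest adjusted p of 0.163 and 0.112 for Rasd2 and Bbs7 without LD replicate 6 and 0.109 for Zfp783 without LD replicate 5.

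Among the smallest p-values were changes of about 2-fold with little spread. Palld, which encodes the actin-bundling protein palladin (chromosome 8, 61511433 to 61902690), was at 79.4, 77.6 and 82.3 CPM in the PoW block, at 82.7, 78.3 and 77.4 CPM in untrained muscle and at 162, 151 and 153 CPM in the LD block. The untrained and PoW libraries could not be separated, and each LD library was far above them. The log2 fold change was 0.96 ± 0.06 (edgeR adjusted p = 2.15e-07). Trim35, a tripartite-motif ubiquitin ligase, rose from 159, 152 and 155 CPM to 313, 281 and 316 CPM, by 0.97 ± 0.08 (edgeR adjusted p = 5.35e-06). Dhrs7c, a reductase of the sarcoplasmic reticulum, rose by 0.70 ± 0.07 from 93.2 to 97.9 CPM up to 146 to 162 CPM, and Adi1, an enzyme of methionine salvage, fell by 0.81 ± 0.09 from 50.9 to 53.4 CPM down to 28.9 to 30.6 CPM. These genes were chosen after their values were seen, since the rule for named genes went by size of change, and all 4 calls held without each library.

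Genes of fast contraction were called in both directions. Of 14 genes on a fast fibre list, 3 were called higher and 1 lower (28.6%), and the median log2 fold change was 0.15. Over all genes tested 2.4% were called, and 6.03% in the quartile of genes with the highest average level. Counts of calls on the lists are to be read against both shares. Casq1, the calcium buffer of the fast sarcoplasmic reticulum (chromosome 1, 172209894 to 172219868), was at 1369, 1458 and 1315 CPM in the PoW block and at 2083, 1957 and 1998 CPM in the LD block. All LD libraries were higher, by 0.54 ± 0.08 on the log2 scale (edgeR adjusted p = 0.000825). Pvalb, the cytosolic calcium buffer parvalbumin, rose by 0.44 ± 0.08, and Myl1, a fast myosin light chain, by 0.39 ± 0.08, a call that was lost without LD replicate 4 (adjusted p = 0.0601). The fast myosin heavy chains themselves were not called: Myh4 lay at 25872 to 34282 CPM in the PoW block and 31707 to 41815 CPM in the LD block, and the blocks overlapped. Myh1, the other fast isoform on the list, had a log2 fold change of 0.15 ± 0.10 (edgeR adjusted p = 0.608).

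Mylk2, the kinase that phosphorylates fast myosin light chains (chromosome 2, 152911352 to 152923068), went the other way. It fell from 688, 617 and 894 CPM to 397, 316 and 367 CPM, with untrained muscle at 729 to 867 CPM. The log2 fold change was -1.03 ± 0.15 (edgeR adjusted p = 0.00224). Actn3, the alpha-actinin of fast fibres, gave -0.47 ± 0.15 without passing the test (edgeR adjusted p = 0.147). Tpm2, the beta-tropomyosin gene, which is on no list and was noticed afterwards, fell by 0.49 ± 0.08 (edgeR adjusted p = 0.00242). Of 17 slow fibre genes, 0 were called by edgeR, DESeq2 or limma-voom and 0 had an unadjusted p under 0.05, and their median was 0.28 with wide scatter: Myh7, the slow myosin, was at 133 CPM in LD replicate 6 and at 8.87 and 6.33 CPM in the other LD libraries.

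Of 16 genes of excitation and calcium handling, 4 were called higher and 0 lower (25%, against 2.4% of all genes tested). The list's median was 0.17. Stac3, an adaptor required for coupling of the voltage sensor to calcium release, was at 140, 151 and 140 CPM in the PoW block and at 211, 201 and 205 CPM in the LD block. The rise of 0.51 ± 0.07 (edgeR adjusted p = 0.000724) held without each library. Sypl2, a protein of the triad membrane, rose by 0.47 ± 0.10, Cacnb1, the beta subunit of the voltage sensor, by 0.44 ± 0.09 and Hrc, a calcium-binding protein of the reticulum, by 0.25 ± 0.07. Those 3 calls each failed without at least 1 library, with highest adjusted p of 0.0872 and 0.0525 without PoW replicate 3 and 0.187 without LD replicate 4. The voltage sensor Cacna1s and the release channel Ryr1 themselves were not called. Further genes of the same kind outside the list were Stim1, the calcium sensor of store-operated entry, at 0.30 ± 0.07, and Cacna2d1, an auxiliary calcium channel subunit, at 0.36 ± 0.08, both called higher and both noticed after their values were seen. They too lost the call without some library (highest adjusted p 0.0934 without PoW replicate 3 and 0.122 without LD replicate 4).

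Several called genes act where the sarcomere meets the membrane or in sarcomere assembly. They were picked from the calls, not from a list, so they carry no count or denominator. Itga7, the laminin-binding integrin of muscle, rose from 61.8, 65 and 52.4 CPM to 96.1, 89.8 and 93.3 CPM (0.64 ± 0.11). Dag1, which encodes dystroglycan, rose by 0.47 ± 0.09, Tln2, a talin, by 0.50 ± 0.07 and Cav3, the muscle caveolin, by 0.41 ± 0.10. Cavin4, a coat protein of caveolae in muscle, rose from 113, 128 and 133 CPM to 192, 193 and 206 CPM (0.66 ± 0.09) and was the 1 of 15 genes called on the list of embryonic, stretch and repair genes. Among factors that act on thin filaments and sarcomere assembly, Klhl40 rose by 0.54 ± 0.09, Smyd1 by 0.35 ± 0.07 and Srf, the serum response factor, by 0.35 ± 0.08. All of these passed edgeR's test and had blocks that did not overlap, which follows from their being picked from the calls. Without single libraries, Cav3, Smyd1 and Srf lost the call (highest adjusted p 0.124 without PoW replicate 2, 0.0645 without LD replicate 4 and 0.091 without PoW replicate 1), while Itga7, Dag1, Tln2, Cavin4 and Klhl40 kept it.

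**Figure D3:**
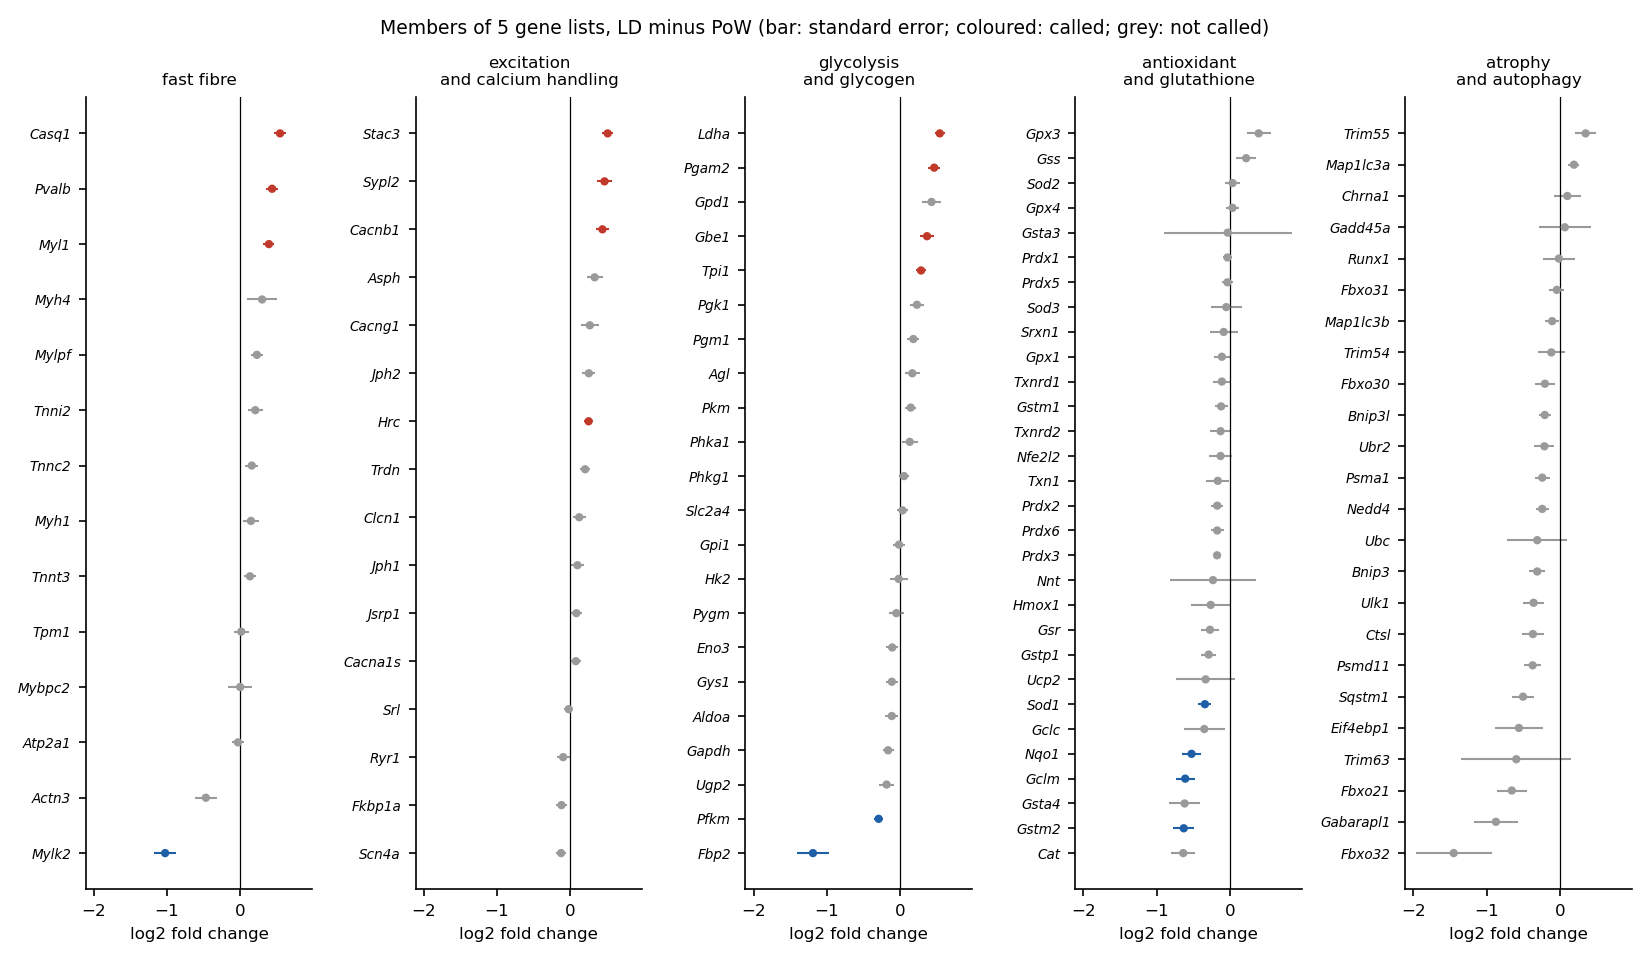
Log2 fold change between the blocks (x axis, LD minus PoW) of every tested member of 5 gene lists. Bars are standard errors, red and blue mark members called higher and lower and grey those not called; the 4 calcium handling calls lie above 0, the 4 antioxidant calls below it, and the atrophy list has 0 calls.

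Of 22 genes of glycolysis and glycogen, 4 were called higher and 2 lower (27.3%, against 2.4% of all genes tested). The median was 0.04. Ldha, the muscle lactate dehydrogenase subunit, rose from 1377, 1551 and 1462 CPM to 2221, 1923 and 2254 CPM (0.54 ± 0.07, edgeR adjusted p = 0.000406). Pgam2, the muscle phosphoglycerate mutase, rose by 0.47 ± 0.08, Gbe1, the glycogen branching enzyme, by 0.37 ± 0.09 and Tpi1, triose phosphate isomerase, by 0.29 ± 0.07. In the opposite direction, Fbp2, the muscle fructose bisphosphatase that runs against glycolysis (chromosome 13, 62836877 to 62858422), fell from 19.7, 15.6 and 25.8 CPM to 8.99, 7.12 and 10.6 CPM (-1.19 ± 0.21, edgeR adjusted p = 0.00823). Pfkm, the phosphofructokinase of muscle, fell by 0.29 ± 0.07. The calls of Ldha, Pgam2 and Fbp2 held without each library, whereas those of Gbe1, Tpi1 and Pfkm did not (highest adjusted p 0.158 without PoW replicate 1, 0.169 without LD replicate 4 and 0.106 without PoW replicate 3). Pygm and Gapdh were not called.

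Several genes that handle glycogen outside the list moved as well, and were noticed after their values were seen. Stbd1, which binds glycogen and is among the largest rises, was at 22.9, 24.5 and 22.3 CPM in the PoW block and at 54.3, 51 and 48.1 CPM in the LD block. Gaa, the lysosomal enzyme that breaks down glycogen (chromosome 11, 119267887 to 119285454), fell from 215, 203 and 234 CPM to 139, 125 and 146 CPM (-0.67 ± 0.09). Epm2a, the glycogen phosphatase laforin, fell by 0.41 ± 0.06. For all 3 genes the blocks stood clear of each other, as in every called gene, and the calls held without each library. Untrained muscle was on the PoW side each time, at 14.9 to 20.6 CPM for Stbd1, 229 to 267 CPM for Gaa and 130 to 136 CPM for Epm2a.

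The calls among antioxidant and glutathione genes were all lower in the LD block. Of 30 tested, 4 were called lower and 0 higher (13.3%, against 2.4% of all genes tested). A log2 fold change below 0 was found for 26, against 50.18% of all genes tested. The median was -0.17, against a median of -0.00 for all genes tested. Gclm, the regulatory subunit of the enzyme that starts glutathione synthesis (chromosome 3, 122245557 to 122270732), was at 22.5, 22.8 and 30.1 CPM in the PoW block and at 15.7, 16.4 and 17.3 CPM in the LD block. Untrained muscle lay between them at 18.8 to 22 CPM. The log2 fold change was -0.61 ± 0.13 (edgeR adjusted p = 0.0147). Gstm2, a glutathione transferase, fell by 0.63 ± 0.14, Nqo1, a quinone reductase, by 0.52 ± 0.13 and Sod1, the cytosolic superoxide dismutase, by 0.34 ± 0.09.

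Each of those 4 calls was lost without some library, with highest adjusted p of 0.0955 for Gclm and 0.233 for Sod1 without PoW replicate 3, and 0.101 for Gstm2 and 0.191 for Nqo1 without LD replicate 4. Sod1 was the last gene inside the threshold at an adjusted p of 0.0493. Cat, the catalase gene, gave -0.64 ± 0.16 and just missed it (edgeR adjusted p = 0.0553). Its libraries did not overlap, at 131, 123 and 158 CPM against 81.9, 86.9 and 95.7 CPM. Outside the list, Gstm5 and Gstm4, further glutathione transferases of the same family, fell by 0.57 ± 0.11 and 0.88 ± 0.17, the latter call being lost without PoW replicate 1 (adjusted p = 0.0561). Reads of near-identical members of that family can be divided by the counting, so single members are less certain than the group.

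Of 20 heat shock and chaperone genes, 0 were called higher and 2 lower (10%, against 2.4% of all genes tested). The median was -0.01. Hsp90ab1, a constitutive cytosolic HSP90, fell from 997, 935 and 1067 CPM to 758, 784 and 721 CPM (-0.41 ± 0.07, edgeR adjusted p = 0.0031), and Hsph1, a large HSP70 relative, fell by 0.45 ± 0.09. Ptges3, the HSP90 co-chaperone p23, fell by 0.42 ± 0.09. Proteasome-related genes noticed after the fit were Psmd2, a subunit of the regulatory particle, at -0.32 ± 0.08, and Psme4, a proteasome activator, at -0.37 ± 0.08, both called lower. Hsp90ab1 and Hsph1 kept their calls without each library, whereas Ptges3 (highest adjusted p 0.109, without LD replicate 4), Psmd2 (0.187, without PoW replicate 3) and Psme4 (0.0779, without LD replicate 5) did not.

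Of 24 atrophy and autophagy genes, 0 were called by edgeR, 3 by DESeq2 and 0 by limma-voom, while 13 had an unadjusted p under 0.05. A log2 fold change below 0 was found for 20, against 50.18% of all genes tested, and the median was -0.24. The blocks did not overlap for 14 members, against 21.4% of all genes tested. Fbxo32, the ubiquitin ligase atrogin-1, was at 834, 705 and 1380 CPM in the PoW block and at 393, 320 and 357 CPM in the LD block. Its LD libraries were low and uniform, but untrained muscle spread from 377 to 1671 CPM, and the log2 fold change of -1.45 ± 0.52 did not pass the test (edgeR adjusted p = 0.219). Trim63, the ligase MuRF1, had overlapping blocks at -0.59 ± 0.75. Sqstm1, the autophagy receptor p62, gave -0.50 ± 0.15 (edgeR adjusted p = 0.0957). Related genes outside the list were called in both directions. Tfeb is on the list of oxidative regulators, and the others were noticed after their values were seen. Tfeb, the transcription factor of lysosome genes, fell by 0.44 ± 0.09, Foxo4 by 0.25 ± 0.06, and Ctsd, the lysosomal protease cathepsin D, by 0.30 ± 0.06. None of these 3 calls held without every library (highest edgeR adjusted p 0.0833 without PoW replicate 3, and 0.158 and 0.0763 without LD replicate 4). Trp53inp2, a regulator of autophagy, rose by 0.48, and its call held without each library. Lgmn, another lysosomal protease, was also called higher.

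Nuclear genes of oxidative phosphorylation had 1 call among 52 (1.92%), near the share over all genes tested (2.4%). Atp5g1, a subunit of the ATP synthase ring, fell by 0.39 ± 0.09 (edgeR adjusted p = 0.124 without PoW replicate 1), and the list's median was 0.04. None of the 15 genes of the mitochondrial genome, 18 of the citric acid cycle or 24 of fatty acid oxidation were called by edgeR, DESeq2 or limma-voom, with 0, 2 and 6 at an unadjusted p under 0.05 and medians of 0.03, 0.01 and -0.11. Mitochondrial transcripts took 19.8% to 21.1% of counts in the PoW block and 19.2% to 22.5% in the LD block. Among 22 oxidative regulators the 1 call was Tfeb, and Ppargc1a, the coactivator of mitochondrial biogenesis, overlapped between blocks at 33.5 to 58.4 and 47.2 to 83.4 CPM. Single mitochondrial genes off the lists were called in both directions, with Slc25a4, the muscle ADP/ATP carrier, at 0.36 ± 0.07, Cox10, an assembly factor of cytochrome oxidase, at 0.53 ± 0.09, and Coq8a, which acts in ubiquinone synthesis, at -0.39 ± 0.08. The call of Coq8a was lost without PoW replicate 1 (adjusted p = 0.0833).

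The clock genes Arntl and Dbp overlapped between blocks: Arntl, part of the core clock, was at 25.5 to 35.6 CPM in the PoW block and 29.3 to 35.7 CPM in the LD block, and Dbp, a clock output, at 11.4 to 30.1 and 11.5 to 17.9 CPM. Untrained replicate 2 was away from the other libraries of 6 months in both, with Dbp at 115 CPM and Arntl at 7.43 CPM. None of 25 immediate early genes and none of 22 glucocorticoid and fasting genes were called by edgeR, DESeq2 or limma-voom, with 2 and 0 at an unadjusted p under 0.05.

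Of 21 growth factor and myostatin genes, 0 were called by edgeR, 2 by DESeq2 and 1 by limma-voom, with 5 at an unadjusted p under 0.05 and a median of -0.01. Igfbp5, a binding protein of insulin-like growth factor, was at 433, 455 and 333 CPM in the PoW block and at 969, 838 and 751 CPM in the LD block. The blocks stood clear of each other, but the log2 fold change of 1.07 ± 0.33 did not pass (edgeR adjusted p = 0.139). Igf1 was at 8.41 to 12.3 CPM in the PoW block and 10.3 to 13.9 CPM in the LD block, both above the untrained 4.02 to 5.63 CPM. Deptor, an inhibitor of mTOR, rose by 0.49 ± 0.12, and the myostatin-binding Wfikkn2 fell by 0.86 ± 0.19, both called and both noticed after their values were seen. Both calls were lost without some library (highest adjusted p 0.175 without PoW replicate 1 and 0.121 without LD replicate 4).

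Single calls appeared on several further lists, where 2.4% of all genes tested were called. Ribosomal proteins had 2 of 89 called higher (Rpl18 at 0.28 and Rpl3l, the muscle form of Rpl3, at 0.26) with a median of -0.01. Translation factors had 2 of 26 called lower (Eif3e at -0.35 and Eif4a2 at -0.30). The lists for red cells, adipocytes, sterol synthesis, DNA methylation, interferon response and nuclear long non-coding RNA had 1 call each: Bpgm at 0.43, Car3 at 0.59, Fdft1 at -0.41, Mbd3 at -0.33, Ifit3b at -1.67 and Peg13 at -0.51. Car3, carbonic anhydrase 3, is also an abundant muscle protein, and was at 2040 to 2080 CPM in the PoW block and 2870 to 3447 CPM in the LD block. Ifit3b has a near-identical neighbour, Ifit3, and its level is uncertain. Of these calls only that of Bpgm held without each library: the highest adjusted p was 0.0723 for Car3, 0.13 for Ifit3b, 0.0898 for Eif4a2 and 0.185 for Rpl3l without LD replicate 4, 0.191 for Fdft1 and 0.166 for Eif3e without PoW replicate 3, 0.156 for Rpl18 without PoW replicate 1, 0.151 for Peg13 without PoW replicate 2 and 0.0942 for Mbd3 without LD replicate 5. Peg10, Peg13 and Zrsr1, which fell by 0.84 ± 0.14, are imprinted genes that were called, in different directions. EdgeR called 0 members on the lists for neuromuscular junction, satellite cells, ribosome biogenesis, small RNA, histones, cell cycle, polyamine metabolism, complement, or the major histocompatibility complex. Those 9 lists had 2, 1, 7, 1, 0, 1, 3, 1 and 1 members at an unadjusted p under 0.05, in that order, and DESeq2 called 2 junction genes, 1 ribosome biogenesis gene and 2 polyamine genes, and limma-voom 1 polyamine gene. The lists for tendon (14 tested), pericytes and smooth muscle (13), lymphocytes and neutrophils (2) and sex-linked genes (4) had 0 calls by edgeR, DESeq2 or limma-voom, and 1, 0, 0 and 0 members at an unadjusted p under 0.05.

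**Figure D4:**
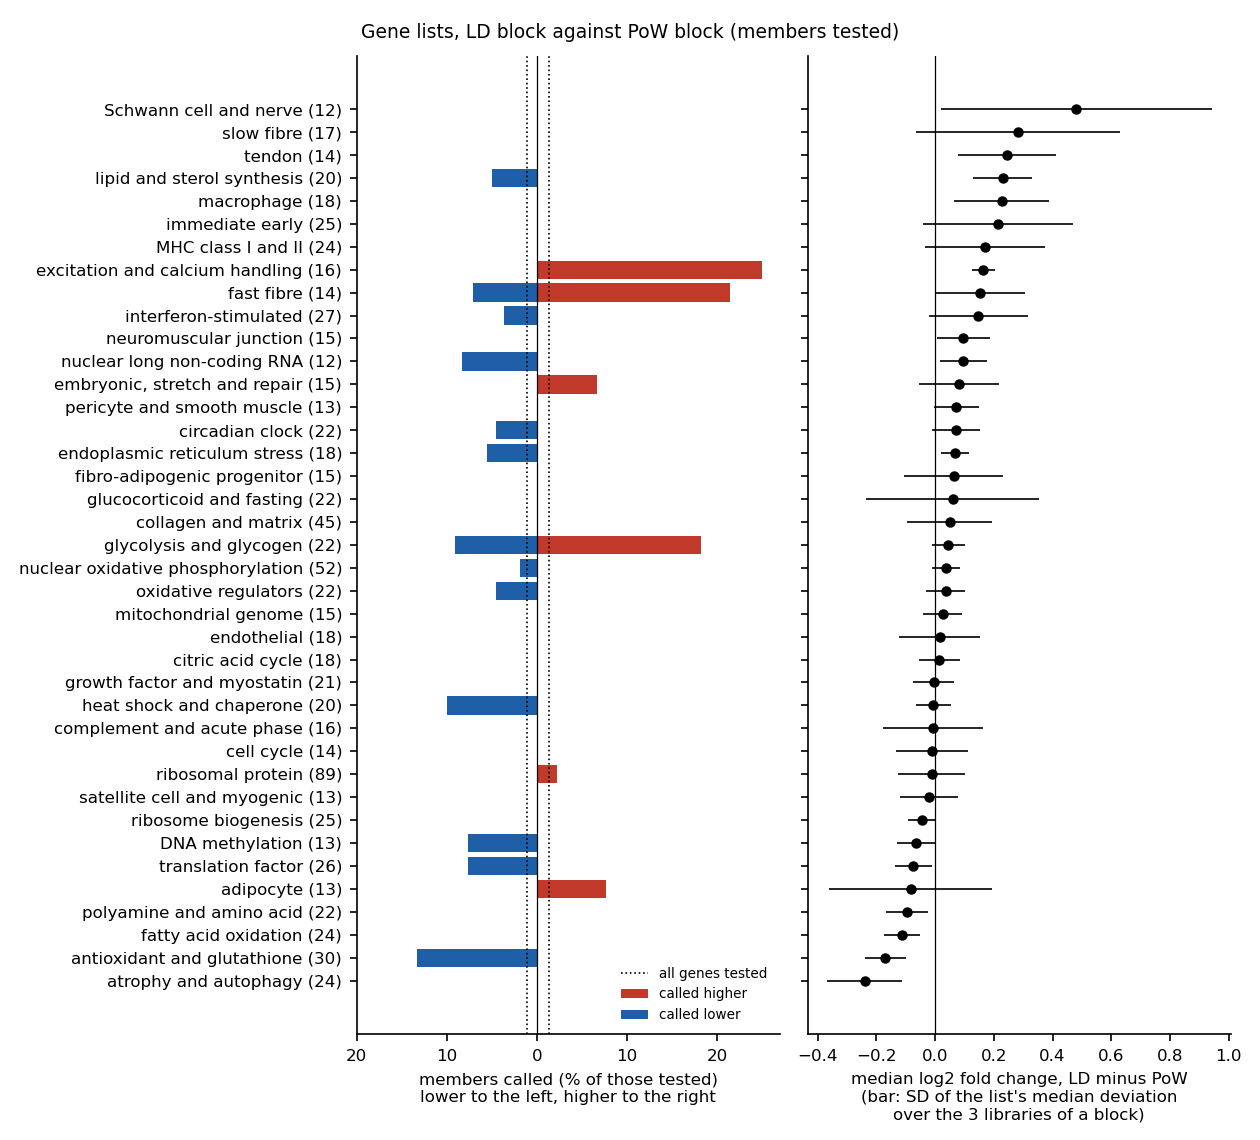
Gene lists with at least 10 tested members (numbers in brackets). The left panel gives the percentage of tested members called lower (blue, to the left) and higher (red, to the right) in the LD block, with dotted lines at 1.12% and 1.28% for all genes tested, and the right panel gives the median log2 fold change with a bar for the SD of the list's median deviation over the libraries of a block.

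Summed marker levels of matrix, fibro-adipogenic progenitor, endothelial and macrophage genes overlapped between the blocks, and both blocks lay above untrained muscle of 6 months. Summed over 45 collagen and matrix genes, the level was 1778 to 2080 CPM in the PoW block, 1892 to 2203 CPM in the LD block and 1446 to 1534 CPM in untrained muscle. For 15 genes of fibro-adipogenic progenitors the ranges were 839.1 to 978, 888.9 to 984.5 and 730 to 834 CPM, for 18 endothelial genes 528 to 593, 513 to 613 and 455 to 491 CPM, and for 18 macrophage genes 86.7 to 111, 94.6 to 112 and 61.8 to 71.8 CPM. No member of those 4 lists was called between the blocks by edgeR, DESeq2 or limma-voom, and 2, 1, 0 and 1 members had an unadjusted p under 0.05. In each of them no library of either block fell into the range of untrained muscle of 6 months. Untrained muscle of 9 months was at 1658 to 1765 CPM for the matrix genes, below both blocks. It was at 846.2 to 965.5 CPM for the progenitor genes and 506.6 to 538.9 CPM for the endothelial genes, ranges that overlapped both blocks. For the macrophage genes it was at 82.3 to 93.65 CPM, which overlapped the PoW block but lay below the LD block. Sums of the 13 pericyte and smooth muscle genes also lay above untrained muscle of 6 months in both blocks, but 2 lists differed. Over 14 tendon genes, untrained muscle was at 128.2 to 154.4 CPM, the PoW block at 133.8 to 165.8 CPM and the LD block at 160.1 to 191.2 CPM. The 2 lymphocyte and neutrophil genes were at 50.72 to 108.4, 69.32 to 122.3 and 107.2 to 201.4 CPM in that order. In such bulk samples, fewer cells of a type and less RNA per cell cannot be told apart.

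**Figure D5:**
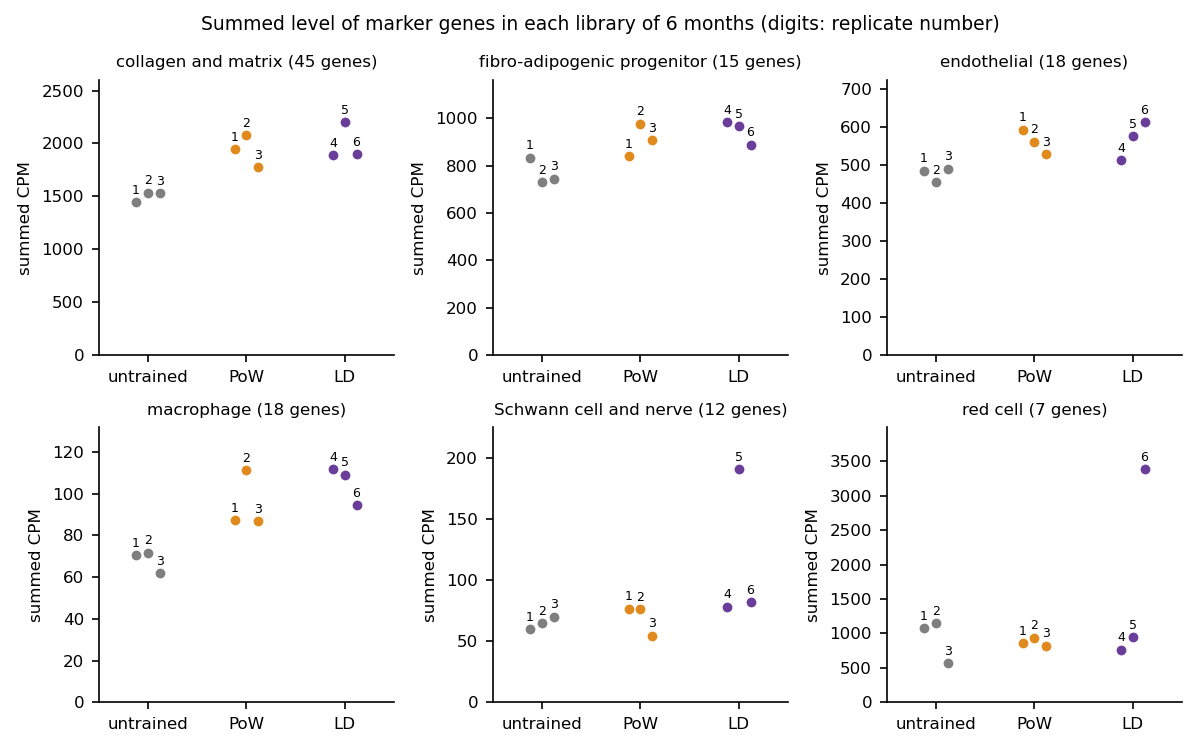
Summed CPM (y axis) of 6 marker lists in each library of 6 months, by group, with the replicate number above each point. For the matrix, progenitor, endothelial and macrophage lists both blocks lie above the untrained libraries, and LD replicates 5 and 6 stand apart in the nerve and red cell panels.

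LD replicates 5 and 6 stood apart in several sums. The summed red cell genes were at 3383 CPM in LD replicate 6 against 766.6 and 947 CPM in the other LD libraries and 823.4 to 941.5 CPM in the PoW block. The summed nerve genes were at 191 CPM in LD replicate 5 against 78.5 and 82.2 CPM in the other LD libraries and 54.8 to 76.8 CPM in the PoW block. LD replicate 5 was also the highest library of 6 months in the summed genes of the mitochondrial genome, at 226400 CPM against at most 204100 CPM, and in the summed slow fibre genes, at 10010 CPM against at most 9164 CPM. Of 12 nerve genes 0 were called by edgeR and 1 by DESeq2, 3 had an unadjusted p under 0.05 and the median was 0.48. Of 7 red cell genes Bpgm alone was called, and the median was 1.15. Of the 365 calls, 190 were made again without LD replicate 5 and 196 without LD replicate 6. Such losses were not particular to these libraries: 151 were made again without LD replicate 4, and 171, 206 and 151 without PoW replicate 1, 2 or 3.

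The PoW block stood apart in a small set of liver transcripts, examined after Alb and Ahsg appeared among the calls. Alb, the albumin gene, had 122, 205 and 128 expected counts in the PoW libraries and 2, 2 and 5 in the LD libraries, with 0, 1 and 3 in untrained muscle. Over 15 liver genes (Alb, Ahsg, apolipoproteins, fibrinogen chains, alpha-1 antitrypsins and others) the sum was 206 to 363 expected counts per PoW library, 2 to 6 per LD library and 1 to 4 per untrained library. Detrained muscle of 9 months reached from 16 to 231 and untrained muscle of 9 months from 5 to 26. All 3 PoW libraries thus held a trace of these transcripts far above the other libraries of 6 months, and its part in the other differences was not tested.

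Calls were concentrated at high levels. By quartile of average level from low to high, 0.29%, 1.26%, 2.03% and 6.03% of genes were called, and in the highest quartile 145 were higher and 84 lower. In the lowest quartile 1 was higher and 10 lower. By quartile of the gene's genomic span from short to long, 2.13%, 2.95%, 2.11% and 2.42% were called. Across the autosomes and the X chromosome the share ran from 1.39% on chromosome 13 to 3.72% on chromosome 6. The window of 10 Mb with the most calls, from 70 to 80 Mb on chromosome 15, held 9 called among 139 tested, Mafa and Pvalb included. Of the called genes, 337 were protein coding (92.3%, against 85.3% of genes tested).

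The largest rise among called genes was in Gm4841, which falls outside the rule for named genes because its average log2 CPM, 1.88, is under 2 and its symbol is provisional. It was at 1.87, 1.37 and 1.17 CPM in the PoW block and at 9.51, 14 and 6.53 CPM in the LD block, a log2 fold change of 2.77 ± 0.32 (edgeR adjusted p = 0.000147). F830016B08Rik, a gene of the same family of interferon-inducible GTPases on chromosome 18, rose from 12.4, 14.5 and 8.14 CPM to 120, 45.6 and 56.1 CPM (2.66 ± 0.53). The interferon-stimulated list as a whole, with 1 of 27 members called, had a median of 0.15. The call of Gm4841 held without each library and that of F830016B08Rik did not (highest adjusted p 0.12, without PoW replicate 3). Members of that family resemble each other in sequence, so reads can be divided between them.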

How the data were processed

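Plantaris RNA of 15 libraries in 5 groups of 3 was analysed from 1 table of expected counts per gene that the authors deposited. Per the submitters' processing notes, reads were aligned with STAR 2.7.3a to mm10, and DESeq2 and Partek were used. No source used here names the counter, its strand setting or its annotation. Expected counts were rounded. Genes were kept by filterByExpr (minimum count 10), leaving 15181 of 20406. Libraries were scaled by TMM, and edgeR 4.0.16 in R 4.3.3 fitted 1 mean per group over all 15 libraries with robust quasi-likelihood F-tests, Benjamini-Hochberg adjusted over all genes tested and called under 0.05. CPM use TMM-scaled sizes. Alternatives used DESeq2 1.42.0, limma 3.58.1, other scalings, filters and fewer libraries. The test was also tried on simulated counts. Genes named are the 12 largest rises and 12 largest falls among called, non-overlapping genes with average log2 CPM of at least 2 and an official symbol, plus up to 4 called members of each of 44 lists, or the member with the smallest p where none was called. All other genes named were chosen after their values were seen. Some genes that met the rule are not reported here. The groups compared, the lists and the tests were chosen with earlier results of these data known. Groups follow titles. Gene positions are those of the deposited table, with ends matching the GRCm38 annotation in 19757 of 19897 matched genes. With 3 libraries against 3, an exact permutation test of single values cannot go below p = 0.1, so none was run. An adjusted p that DESeq2 gave as missing stayed missing.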

Additional observations from a re-analysis of the deposited data

How the results depend on the processing

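No paired analysis was possible because the blocks carry no replicate number in common (1 to 3 and 4 to 6). DESeq2 called 675 genes between the blocks (345 higher, 330 lower), 1163 between the LD block and untrained muscle and 134 between the PoW block and untrained muscle. The last comparison, with 0 calls as reported, gave 2 with the 9 libraries of 6 months only and 8 without a filter on low counts. Other planned scalings, filters and tools gave 356 to 436 calls between the blocks. Fits with the 9 libraries of 6 months only and with the 6 libraries of both blocks only gave 316 and 443. All of these counts were within 1.5 times of the 365 reported. Leaving out each of the 15 libraries gave 157 to 428 calls between the blocks (83 to 235 higher, 74 to 193 lower), 288 to 827 against untrained muscle for the LD block and 0 to 11 for the PoW block. Leaving out LD replicates 5 and 6 together, an alternative added after seeing the data, left 46 calls between the blocks (36 higher, 10 lower) and 71 between the LD block and untrained muscle, with 1 LD library that is assumed to vary like the other groups. Of 3966 values of named genes under the alternatives, 3442 kept direction and side of the threshold, 476 lost the call, 43 gained it and 5 changed sign, all in uncalled genes. Igf1 (0.11 as reported) ran from -0.038 without LD replicate 5 to 0.22 without PoW replicate 1, with -0.030 without PoW replicate 3 and -0.014 without LD replicates 5 and 6, and Myh2 (0.17 as reported) ran from -0.00967 without LD replicate 5 to 0.31 without PoW replicate 1, with -0.16 without LD replicates 5 and 6. Of 1142 list medians, 50 moved by more than their spread between libraries. The cause of these changes was not tested. Precision is limited by 3 libraries a group and, for genes in the lowest quartile of level, by low counts.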
